A study of Mus musculus with 6 samples.

Results

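The genes of arginine and polyamine metabolism described here are the argininosuccinate enzymes Ass1 and Asl, the arginases Arg1 and Arg2, and 6 genes of polyamine synthesis and breakdown, Odc1, Azin1, Amd1, Srm, Sms and Sat1. They were chosen by symbol, and each matched 1 locus, so 10 of the 23793 loci of the deposited table are members. Cerebellar RNA was sequenced at postnatal day 0 in 3 conditional knockout libraries (cKO, Zeb2 f/f with hGFAP-cre) and 3 control libraries (Zeb2 f/+ with hGFAP-cre). All 6 libraries therefore carry the Cre driver, which uses the human GFAP promoter and acts in neural progenitors and their glial and neuronal descendants, and the controls also carry 1 floxed allele of Zeb2, a zinc finger transcription factor. Cre can delete that allele too, so the controls are no baseline known to have Zeb2 intact. No library without Cre or without a floxed allele was analysed here.

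Arginine can be rebuilt from citrulline by argininosuccinate synthase and argininosuccinate lyase, and arginases split it into urea and ornithine. Ornithine decarboxylase turns ornithine into putrescine, and spermidine synthase and spermine synthase lengthen putrescine with aminopropyl groups that come from decarboxylated S-adenosylmethionine. Acetylation by spermidine/spermine acetyltransferase marks polyamines for oxidation or export. Polyamines are needed for translation and growth, and arginine also feeds nitric oxide and creatine, so the pathway is studied both in dividing progenitors and in glia.

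The members were picked with results of this same contrast known, in which Ass1, Arg1 and Sat1 had been named for their differences. The differences between cKO and control libraries are therefore a description of these 6 libraries. Adjusted p-values come from 1 limma fit over all 13612 loci with at least 1 FPKM (fragments per kilobase of transcript, scaled to the size of the library) in at least 3 libraries, with a threshold of 0.05. No p was computed over the members alone. Log2 fold changes are cKO minus control on the log2(FPKM + 1) scale, which understates the change of low genes.

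The summed FPKM of a library lay between 497542 and 524474, and no read numbers are given in the sources used here. All 10 genes of cerebellar identity passed the filter on low values, with a summed level of 740 to 783 FPKM in cKO and 743 to 826 FPKM in controls. The Zeb2 locus was at 6.19, 3.89 and 5.81 FPKM in cKO and at 11.4, 9.52 and 7.995 FPKM in controls, and did not pass (log2 fold change -0.77, SE 0.18, limma adjusted p = 0.107, exact two-sided permutation p = 0.1, the smallest that 3 against 3 can give). Xist was at 142 to 147.5 FPKM in the cKO libraries and 0.331 to 0.515 FPKM in the controls, and the Y-linked Eif2s3y at 0.0270 to 0.108 FPKM in cKO and 34.5 to 37.2 FPKM in controls, so in these libraries sex and genotype cannot be told apart. Library cKO 3 lay apart from the other cKO libraries on the first principal component (0.0643, against 0.521 and 0.535 for cKO 1 and cKO 2). The step size of low values placed cKO 3 with control 1 in a processing set of their own, too small for a comparison within it. Whether each library is another animal is not stated in the labels, so every p-value rests on the spread among libraries, which may be technical.

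Of the 10 members, Arg1 and Sat1 rose, Ass1 fell, and the other 7 did not pass. Over all tested loci 0.573% passed, 0.242% higher and 0.331% lower in cKO. In 3 members the cKO values and the control values did not overlap, as in 23.9% of all tested loci. The members' median log2 fold change was 0.04, against -0.0095 over all tested loci. In a fit without small-RNA loci, again 3 members and 2.47% of the loci fitted passed. Since the choice of members used this contrast, nothing is read from these shares.

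**Figure D1:**
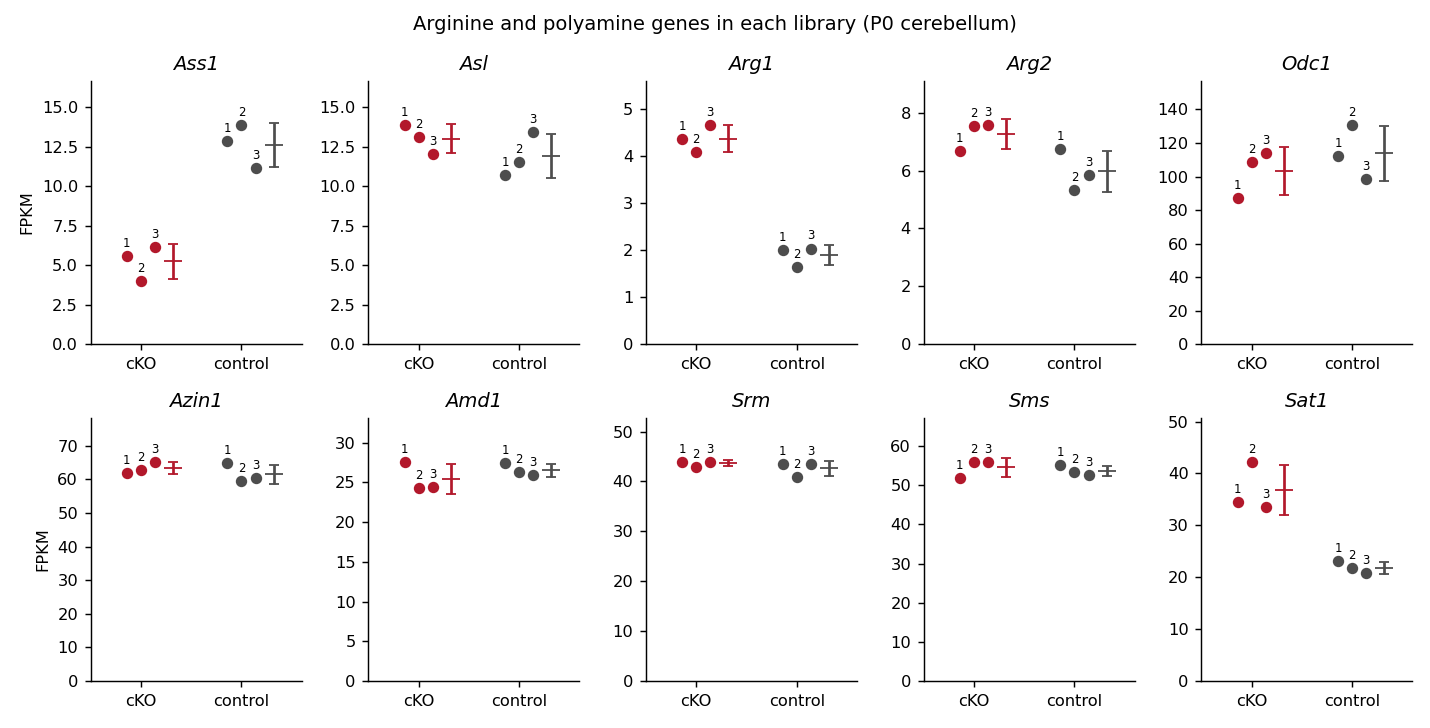
FPKM of the 10 genes in each library, cKO in red and control in grey, with the library number above each point and the group mean with its SD (n = 3) beside the points. Each axis starts at 0. The groups do not overlap for Ass1, Arg1 and Sat1, and overlap for the other 7 genes.

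Ass1, which joins citrulline and aspartate in the rate-limiting step of arginine synthesis from citrulline, fell in the cKO cerebellum. Its locus (GRCm38 chromosome 2, 31470207 to 31520672, plus strand) stood at 5.575, 3.99 and 6.17 FPKM in cKO libraries 1, 2 and 3, against 12.8, 13.9 and 11.2 FPKM in control libraries 1, 2 and 3. The highest cKO value was thus well under the lowest control value, and cKO 2 was the lowest of all. The group means were 5.24 ± 1.13 FPKM in cKO and 12.6 ± 1.38 FPKM in controls (SD, n = 3 each), which puts cKO at 41.5% of control. The log2 fold change was -1.14 (SE 0.15, limma adjusted p = 0.0336). The call was lost without cKO 1 (adjusted p = 0.118), control 1 (0.123), control 2 (0.152) or control 3 (0.0623), and in the 4 libraries of the larger processing set alone (log2 fold change -1.23, adjusted p = 0.167). It held without cKO 3, at a log2 fold change of -1.25 (adjusted p = 0.0460).

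The promoter of Ass1 is shown because Zeb2 is known to bind E2 boxes, of the form CACCTG, in the promoters of genes it represses. RefSeq's table (GRCm38.p6) gave a window of 250 bases before to 50 bases after the start for 5 of the 10 members: Ass1, Odc1, Amd1, Sms, which has 2 windows, and Sat1. The window of Sat1 stands beside that of Ass1 as that of the other called member in the table. Capitals mark the E2 box CACCTG, searched on both strands and so also as CAGGTG, and the E box CACGTG, a palindrome bound by Myc and related factors.
Ass1 (chr2:31470020-31470319, plus strand): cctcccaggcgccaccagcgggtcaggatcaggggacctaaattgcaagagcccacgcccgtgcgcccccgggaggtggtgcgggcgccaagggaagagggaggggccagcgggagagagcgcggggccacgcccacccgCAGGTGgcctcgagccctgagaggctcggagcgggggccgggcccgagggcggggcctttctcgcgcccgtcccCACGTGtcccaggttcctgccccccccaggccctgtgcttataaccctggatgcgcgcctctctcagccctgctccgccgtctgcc
Sat1 (chrX:155216400-155216699, minus strand): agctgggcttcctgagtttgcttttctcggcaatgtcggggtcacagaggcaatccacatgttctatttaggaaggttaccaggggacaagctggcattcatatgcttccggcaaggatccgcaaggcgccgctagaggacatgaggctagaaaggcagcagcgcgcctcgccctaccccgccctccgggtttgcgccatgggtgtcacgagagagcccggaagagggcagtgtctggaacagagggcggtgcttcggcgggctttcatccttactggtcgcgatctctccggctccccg
The Ass1 window holds 1 E2 box in its reverse form, starting at base -110 from the start site, and 1 E box at base -36. The Sat1 window holds neither, and its GC content is 60.3%, against 74.0% for Ass1. Of the 6 windows of members, 1 holds an E2 box and 2 hold an E box, the other being 1 of the Sms windows. Among all 32851 windows of the table, 20.2% hold an E2 box and 7.2% an E box. A match is a description of letters and no evidence of binding. Ass1 was lower, not higher, in cKO, and whether Zeb2 binds or represses it was not tested.

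Asl, which releases arginine from argininosuccinate in the next step, did not follow Ass1. It was at 13.9, 13.1 and 12.05 FPKM in cKO and at 10.7, 11.5 and 13.5 FPKM in controls. The groups overlapped, and the log2 fold change was 0.12 (95% interval -0.10 to 0.34, limma adjusted p = 0.543). The ratio of Ass1 to Asl in FPKM was 0.406 ± 0.104 in cKO and 1.08 ± 0.215 in controls (SD, n = 3 each), with no overlap between 0.304 to 0.512 in cKO and 0.829 to 1.21 in controls. Ass1 was chosen for its difference and Asl did not pass, so the ratio restates the difference of Ass1.

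Of 10 glial genes, all tested, 0 fell and 1 rose by limma, and 7 had an unadjusted p under 0.05. Of these genes 7 had negative and 3 positive log2 fold changes, with a median of -0.26, and their summed level was 2001 to 2170 FPKM in cKO and 2210 to 2255 FPKM in controls. None of the 10 was at 0 in any library. The most abundant, Fabp7, a lipid carrier typical of radial glia, made up most of that sum and averaged 1581 ± 29.1 FPKM in cKO and 1577 ± 49.97 FPKM in controls (SD, n = 3 each; limma adjusted p = 0.989). Olig1, a factor of the oligodendrocyte lineage, rose to 147 ± 7.40 FPKM in cKO, against 72.6 ± 11.5 FPKM in controls (adjusted p = 0.0231, at most 0.167 over the alternative settings). Gdf10, a growth factor of Bergmann glia, stood at 74.9, 19.9 and 69.3 FPKM in cKO and 124, 120 and 99.6 FPKM in controls. The glutamate transporter gene Slc1a3 stood at 206, 92.9 and 182 FPKM in cKO and 302, 260 and 244 FPKM in controls. Like Ass1, both were lowest in cKO 2, and neither passed (limma adjusted p = 0.241 for Gdf10 and 0.221 for Slc1a3). Of the other glial genes, Aldh1l1 and Hopx were also lowest in cKO 2, but Aqp4, Gfap and Pdgfra were lowest in cKO 1. The 3 with positive log2 fold changes were lowest in a control library. In a whole tissue, fewer cells of a type and less RNA per cell cannot be told apart, and the part of glia in the result for Ass1 was not tested.

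The 3 loci whose centred log2 values over the 6 libraries lay closest to those of Ass1, out of 12908 compared and leaving out small-RNA, X and Y loci, were Kirrel2, Ccnd1 and Prdm13. Their root mean square distances were 0.108, 0.129 and 0.138 log2 units, against 0.597 for Ass1 around its own mean. Ass1 was chosen for its difference between the groups, which the 0.597 includes, so loci this close must share that difference. No common regulation is read from the likeness. Kirrel2, a cell adhesion gene of the immunoglobulin superfamily, averaged 5.036 ± 1.303 FPKM in cKO and 12.6 ± 0.748 FPKM in controls, and its lowest library was also cKO 2, at 3.55 FPKM. Ccnd1, cyclin D1, averaged 29.2 ± 2.20 FPKM in cKO and 59.9 ± 4.03 FPKM in controls. Prdm13, a transcriptional regulator of GABAergic progenitors, averaged 2.64 ± 0.389 FPKM in cKO and 8.05 ± 1.33 FPKM in controls (SD, n = 3 each). Ptf1a, another factor of these progenitors, is among the 10 genes of cerebellar identity. It was at 1.65, 0.854 and 2.215 FPKM in cKO and 3.71, 2.84 and 4.425 FPKM in controls (limma adjusted p = 0.124). Like Ass1 it was lowest in cKO 2. None of the 10 passed, with 3 positive and 7 negative log2 fold changes. The part of these progenitors in the result for Ass1 was not tested.

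Arg1, the cytosolic arginase, rose. In the brain it is best known from activated macrophages and microglia in mice, although some neurons also make it. Its locus (GRCm38 chromosome 10, 24915221 to 24927484, minus strand) was at 4.35, 4.08 and 4.66 FPKM in cKO and at 2.01, 1.64 and 2.03 FPKM in controls. Every cKO value was above every control value, and the libraries of each group lay close together. The means were 4.36 ± 0.289 FPKM in cKO and 1.89 ± 0.218 FPKM in controls (SD, n = 3 each), a ratio of 2.30. The log2 fold change was 0.89 (SE 0.08, limma adjusted p = 0.0110), and 1.17 at a pseudocount of 0.1. The call was lost without cKO 1 (log2 fold change 0.89, adjusted p = 0.0811) and in the larger processing set alone (0.88, adjusted p = 0.133), and held without each of the other 5 libraries.

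Arg2, the mitochondrial arginase, was at 6.66, 7.55 and 7.58 FPKM in cKO and at 6.73, 5.34 and 5.85 FPKM in controls. Control 1 lay above cKO 1, so the groups overlapped, and the log2 fold change of 0.25 did not pass (95% interval 0.03 to 0.47, limma adjusted p = 0.240). Part of the Arg2 locus is covered on the opposite strand by Vti1b and an antisense transcript in GENCODE, and the strand setting of the counting is not known. The ratio of Arg1 to Arg2 in FPKM was 0.603 ± 0.0576 in cKO and 0.318 ± 0.0259 in controls (SD, n = 3 each), and Arg2 was the more abundant arginase RNA per length in every library. Arg1 was chosen for its difference, so the change of this ratio is no further result.

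Of the immune cell markers, the summed microglia genes separated the groups, and those of border macrophages and myeloid cells did not. Of 10 microglia genes 9 were tested and all 9 had positive log2 fold changes, with a median of 0.37, and their summed level was 66.6 to 73.4 FPKM in cKO and 52.5 to 54.4 FPKM in controls. Csf1r, the receptor microglia need for survival, rose to 6.13 ± 0.490 FPKM in cKO, against 4.10 ± 0.0642 FPKM in controls (SD, n = 3 each; limma adjusted p = 0.0483, from 0.0210 to 0.195 over the alternative settings), and the other 8 did not pass. C1qb, a complement component, had 11.5 ± 0.810 FPKM in cKO and 8.25 ± 0.990 FPKM in controls (SD, n = 3 each; limma adjusted p = 0.0910). Of 10 genes of border macrophages and myeloid cells, 7 were under 1 FPKM in all libraries, and Pf4, S100a8 and Ly6c2 were at 0 in at least 1. Of these 10 genes, 9 did not pass the filter on low values. The summed level of the 10 was 2.45 to 7.47 FPKM in cKO and 2.48 to 4.87 FPKM in controls. Genes of meningeal fibroblasts summed to 24.5 to 71.8 FPKM in cKO and 20.9 to 43.8 FPKM in controls, with 7 of 8 log2 fold changes positive, none past the threshold and none of the 8 at 0 in any library. Of their 2 most abundant, Islr averaged 9.985 ± 1.601 FPKM in cKO and 14.3 ± 2.17 FPKM in controls, and the collagen gene Col3a1 12.2 ± 9.97 FPKM in cKO and 4.075 ± 4.52 FPKM in controls (SD, n = 3 each). The part of these cells in the result for Arg1 was not tested.

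The genes of polyamine synthesis did not pass in either direction. Odc1, ornithine decarboxylase, the first and rate-limiting enzyme, was the most abundant member, at 87.2, 108.6 and 114 FPKM in cKO and 112, 131 and 98.3 FPKM in controls. Its libraries spread widely within each group, from 87.2 to 131 FPKM over all 6, and the log2 fold change was -0.14 (95% interval -0.46 to 0.18, limma adjusted p = 0.646). Azin1, an inactive relative of ornithine decarboxylase that protects it by binding antizyme, was at 61.8, 62.8 and 65.3 FPKM in cKO and at 64.8, 59.5 and 60.4 FPKM in controls. Its log2 fold change was 0.04 (95% interval -0.08 to 0.17).

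Amd1, which decarboxylates S-adenosylmethionine to supply aminopropyl groups, was at 27.6, 24.2 and 24.5 FPKM in cKO and 27.4, 26.3 and 25.9 FPKM in controls. cKO 1 was the highest of the 6 and the other cKO libraries the lowest, and the log2 fold change was -0.06 (95% interval -0.21 to 0.09). Amd2, a near-identical copy, matched no locus of the deposited table, and how reads of the pair were assigned is not known. Srm, spermidine synthase, was at 43.9, 42.9 and 44.0 FPKM in cKO and 43.5, 40.9 and 43.5 FPKM in controls (log2 fold change 0.03, 95% interval -0.08 to 0.15). Sms, spermine synthase, was at 51.9, 56.1 and 56.0 FPKM in cKO and 55.1, 53.5 and 52.5 FPKM in controls (log2 fold change 0.02, 95% interval -0.10 to 0.15). Sms has a named pseudogene, Sms-ps, in GENCODE. The intervals of these 5 genes reach from -0.46 to 0.18, with the widest that of Odc1.

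These genes stood beside a lower cell cycle list. All 10 genes of cycling cells had negative log2 fold changes (median -0.44), 4 of them past the threshold, and their summed level was 304 to 322.5 FPKM in cKO and 398 to 447 FPKM in controls. Top2a, the topoisomerase of dividing cells, averaged 36.2 ± 1.85 FPKM in cKO and 50.3 ± 2.61 FPKM in controls (SD, n = 3 each; limma adjusted p = 0.0336, from 0.00871 to 0.167 over the alternative settings), and Pcna, the sliding clamp of replication, 114 ± 6.14 FPKM in cKO and 152 ± 10.99 FPKM in controls without passing (adjusted p = 0.0724). The difference between the cycling genes and the polyamine genes was not tested.

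Sat1, the acetyltransferase that starts polyamine breakdown and export, rose. Its locus (GRCm38 chromosome X, 155213132 to 155216449, minus strand) was at 34.6, 42.3 and 33.4 FPKM in cKO and 23.1, 21.7 and 20.7 FPKM in controls. All cKO values were above all control values, with cKO 2 the highest. The means were 36.8 ± 4.82 FPKM in cKO and 21.8 ± 1.18 FPKM in controls (SD, n = 3 each), a ratio of 1.68. The log2 fold change was 0.72 (SE 0.09, limma adjusted p = 0.0359). The call held without cKO 2 (log2 fold change 0.62, adjusted p = 0.0453) and was lost without cKO 1 (0.118), cKO 3 (0.0581), control 1 (0.0960), control 2 (0.160) or control 3 (0.0850), and in the larger processing set alone (log2 fold change 0.82, adjusted p = 0.157). The ratio of Sat1 to Srm in FPKM was 0.844 ± 0.123 in cKO and 0.513 ± 0.0309 in controls (SD, n = 3 each), with no overlap between the groups. Sat1 was chosen for its difference and Srm did not pass, so the ratio restates the difference of Sat1. The summed microglia genes given beside Arg1 and the summed endothelial genes also separated the groups. The 8 endothelial genes, all tested and none past the threshold, summed to 121.9 to 131.5 FPKM in cKO and 91.8 to 113 FPKM in controls, with 7 positive log2 fold changes and none at 0 in any library. In 1 of the 8, Mfsd2a, the groups did not overlap, at 27.9 ± 2.61 FPKM in cKO and 15.45 ± 3.77 FPKM in controls (SD, n = 3 each). Pecam1, Kdr and Flt1 averaged 8.06, 9.90 and 4.62 FPKM in cKO, against 7.67, 9.89 and 4.54 FPKM in controls. The higher sum was thus not shared evenly by the 8 genes. The part of microglia and endothelium in the results for Arg1 and Sat1 was not tested.

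**Figure D2:**
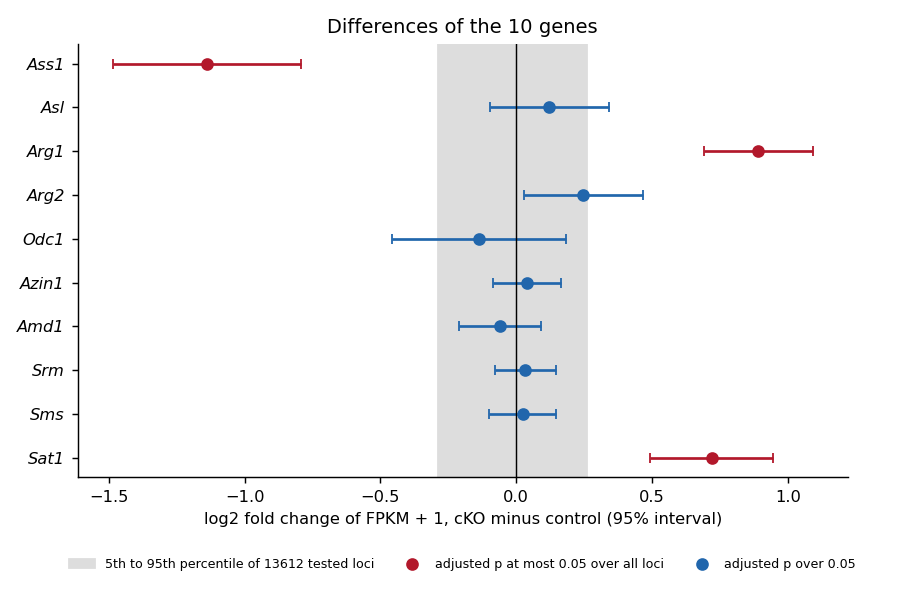
Log2 fold changes of FPKM + 1 (x axis, cKO minus control) of the 10 genes (y axis) with their 95% intervals, in red where the limma adjusted p over all loci was at most 0.05 and in blue otherwise. The grey band spans the 5th to 95th percentile of all tested loci. Ass1 lies to the left of the band at -1.14, Arg1 and Sat1 to its right at 0.89 and 0.72, and the points of the other 7 lie within it.

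Sat1 and Sms are X-linked, and the cKO libraries expressed Xist while the controls did not. Sms and Sat1 lie within a few megabases of each other but differed in their values, at log2 fold changes of 0.02 and 0.72. Over the 470 tested X-linked loci the median log2 fold change was -0.0016 (5th to 95th percentile -0.26 to 0.22), against -0.0097 over 13083 autosomal loci. With values scaled to the same sum the medians were 0.022 for X-linked and 0.014 for autosomal loci, and with values scaled to the same median 0.021 and 0.013. Such scalings shift both sets nearly alike, so the difference between them stayed at 0.0081 to 0.0083. With 1 library left out this difference ranged from 0.0005 without cKO 2 to 0.0187 without control 1. Of the X-linked loci 3 rose, Xist, Eif2s3x and Sat1, and 1 fell, Plxnb3. Sat1 was among the members because of this difference, so its place among the X-linked loci is not read further. Eif2s3x, a translation factor gene known to escape X inactivation in mice, and Plxnb3, a plexin, are named because of their calls. Sex and genotype cannot be told apart for Sat1.

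**Figure D3:**
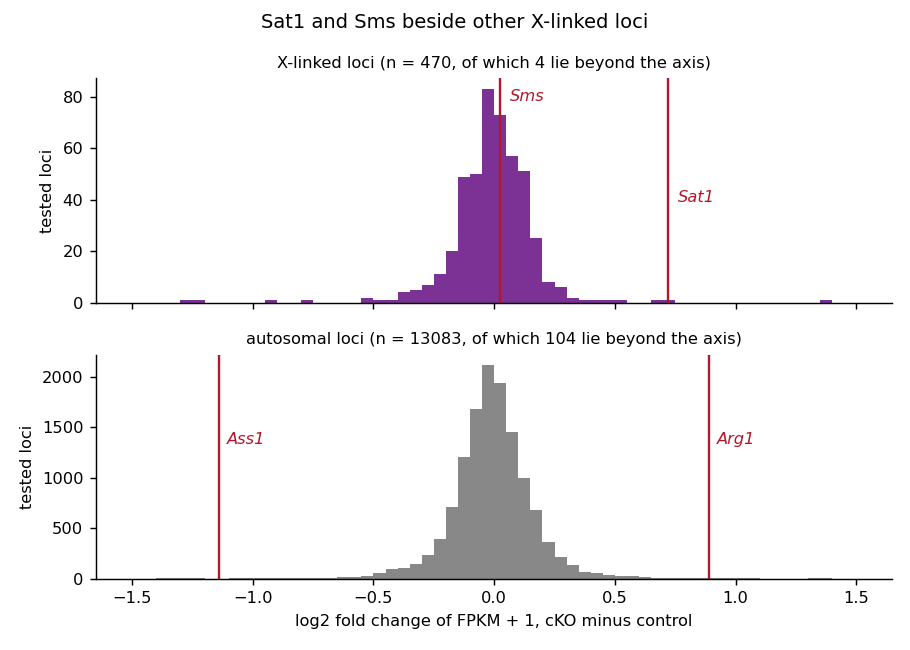
Number of tested loci (y axis) by log2 fold change of FPKM + 1, cKO minus control (x axis, in bins of 0.05), for X-linked loci above and autosomal loci below. Red lines mark Sms at 0.02 and Sat1 at 0.72 among the X-linked loci, and Ass1 at -1.14 and Arg1 at 0.89 among the autosomal loci.

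The order of the levels over all 6 libraries, in FPKM, was Odc1, Azin1, Sms, Srm, Sat1, Amd1, Asl, Ass1, Arg2 and Arg1, with means from 108.6 FPKM for Odc1 to 3.13 FPKM for Arg1. The 6 values of Odc1, Azin1, Sms and Srm did not overlap with those of the next gene, apart from those of Srm and Sat1. Sat1 overlapped also with Amd1, Asl with Ass1, and Ass1 with Arg2, while Amd1 lay above Asl and Arg2 above Arg1 in every library. Polyamine synthesis genes thus stood at the 72.2 to 94.6 percentile of mean level among tested loci and the arginases at the 15.2 and 30.2 percentile. Within the cKO group the coefficient of variation was 21.5% for Ass1, 13.8% for Odc1, 13.1% for Sat1 and 1.37% for Srm, and within the controls 10.9% for Ass1, 14.3% for Odc1, 5.39% for Sat1 and 3.61% for Srm.

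Genes around the pathway were taken from 6 lists, which hold 82 genes, of which 80 matched a locus and 72 passed the filter on low values. Over all loci 0 of the 72 rose and 1 fell, Gamt. Their median log2 fold change was -0.02, with 33 positive and 39 negative. With small-RNA loci left out 5 passed: Gamt, Gatm, Slc7a5, Cbs and Cdk4. Over all tested loci 17.6% had an unadjusted p under 0.05, the share beside which the counts at that level in the lists stand.

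Among 14 genes of arginine use, 12 were tested, with 4 positive and 8 negative log2 fold changes and a median of -0.09. The 2 enzymes of creatine synthesis lay at opposite ends. Gamt, guanidinoacetate methyltransferase, which completes creatine, fell to 12.1, 9.375 and 11.8 FPKM in cKO, against 20.4, 19.1 and 18.1 FPKM in controls (log2 fold change -0.75, SE 0.10, limma adjusted p = 0.0369). Gatm, which takes the amidino group from arginine in the step before and was singled out after its values were seen, was at 22.9, 21.1 and 21.4 FPKM in cKO and 14.6, 14.1 and 17.8 FPKM in controls (log2 fold change 0.47, SE 0.09, limma adjusted p = 0.0788, and 0.0411 without control 3). Neither gene's groups overlapped, and the ratio of Gatm to Gamt in FPKM was 1.98 ± 0.237 in cKO and 0.813 ± 0.151 in controls (SD, n = 3 each). Both genes were named for their values, so the ratio is no further result. The call of Gamt was lost without any 1 of the 6 libraries (adjusted p from 0.0523 without cKO 2 to 0.165 without control 2, over cKO 1 at 0.110, cKO 3 at 0.0675, control 1 at 0.135 and control 3 at 0.0789), while its log2 fold change stayed between -0.81 and -0.64. Of the nitric oxide synthases, Nos2 was not tested for low values, and Nos1 and Nos3 averaged 2.01 ± 0.237 and 2.20 ± 0.192 FPKM in cKO and 1.95 ± 0.529 and 2.25 ± 0.496 FPKM in controls (SD, n = 3 each).

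Of 15 genes of arginine supply and the urea cycle 12 were tested and none passed (limma, 6 with an unadjusted p under 0.05), with 10 positive and 2 negative log2 fold changes and a median of 0.09. Cps1, Otc and Nags, the mitochondrial entry to the urea cycle, did not pass the filter on low values. Slc7a5, an amino acid transporter, averaged 77.6 ± 1.98 FPKM in cKO and 63.9 ± 1.895 FPKM in controls (SD, n = 3 each; log2 fold change 0.28, adjusted p = 0.0722). Got1, the cytosolic aspartate aminotransferase, had a log2 fold change of 0.18 (adjusted p = 0.174). Among 6 tested genes of ornithine and proline, 0 passed by limma (1 with an unadjusted p under 0.05), and Oat, which joins ornithine to glutamate and proline, averaged 43.1 ± 1.345 FPKM in cKO and 47.05 ± 1.135 FPKM in controls (SD, n = 3 each; log2 fold change -0.12). Aldh18a1, the first enzyme from glutamate towards proline and ornithine, had a log2 fold change of -0.09.

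Of 17 tested genes of polyamine regulation, breakdown, transport and hypusine, 0 passed by limma (4 with an unadjusted p under 0.05), with 11 positive and 6 negative log2 fold changes and a median of 0.04. Their 2 smallest p-values belonged to Atp13a2, a lysosomal polyamine exporter, with a log2 fold change of 0.18 (adjusted p = 0.175), and Mtap, which recycles the methylthioadenosine left by polyamine synthesis, with -0.20 (adjusted p = 0.200). Atp13a4, a transporter related to Atp13a2, had the largest log2 fold change of the list, 0.74 (SE 0.25, adjusted p = 0.216), with 5.05, 5.75 and 3.39 FPKM in cKO and 2.20, 1.54 and 3.735 FPKM in controls. Control 1 and control 2 were its lowest libraries and control 3 lay above cKO 3. In the methionine list 0 of 11 passed by limma (2 with an unadjusted p under 0.05). Its median was -0.09, and Cbs, which removes homocysteine, averaged 9.115 ± 0.682 FPKM in cKO and 12.1 ± 0.430 FPKM in controls (SD, n = 3 each; log2 fold change -0.37, adjusted p = 0.0737). Mtrr, which reactivates methionine synthase, had a log2 fold change of -0.19.

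Odc1 is a textbook target of Myc. Of 14 Myc factors and targets 0 passed by limma (6 with an unadjusted p under 0.05), with 3 positive and 11 negative log2 fold changes and a median of -0.13. Mycn, the Myc factor of granule neuron progenitors, averaged 37.96 ± 1.17 FPKM in cKO and 46.4 ± 4.23 FPKM in controls (SD, n = 3 each; log2 fold change -0.28, adjusted p = 0.133), and Cdk4, a cyclin-dependent kinase, 170.7 ± 11.4 FPKM in cKO and 218.7 ± 6.02 FPKM in controls (log2 fold change -0.36, adjusted p = 0.0740).

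**Figure D4:**
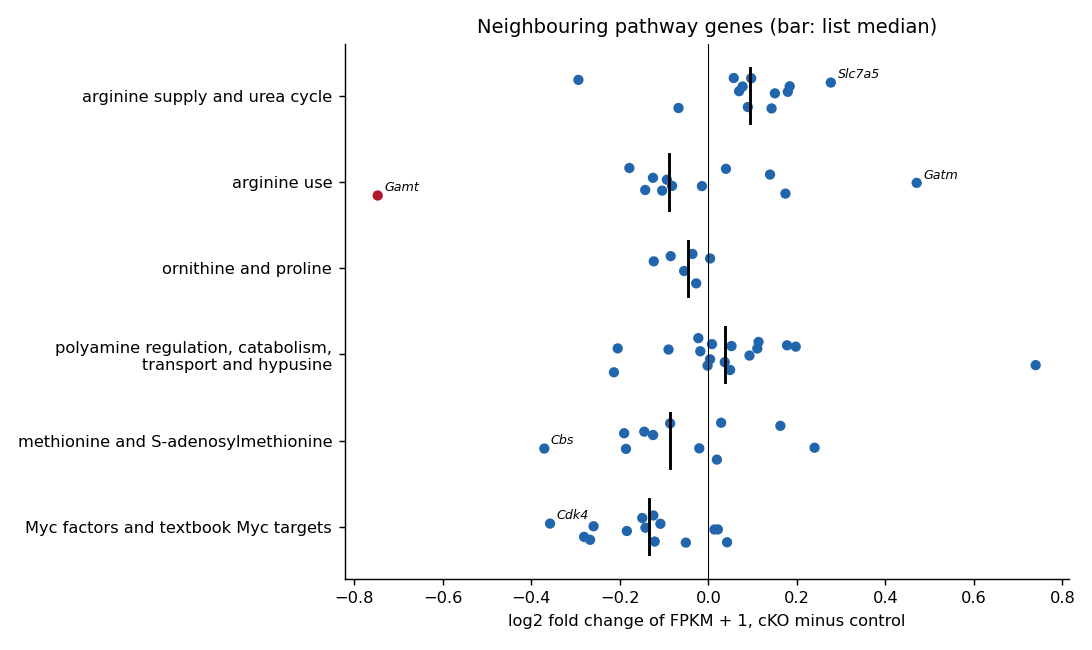
Log2 fold changes of FPKM + 1, cKO minus control (x axis), of the 72 tested genes of 6 lists around the pathway (y axis), 1 point per gene, with a black bar at each list's median. Gamt, in red, is the 1 gene past the threshold, at -0.75, and Gatm lies at 0.47 in the same list. The point at 0.74 is Atp13a4, which did not pass.

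The directions of Ass1, Arg1 and Sat1 held in every setting tried, while their calls did not. Their cKO and control values do not overlap, so leaving out a library could not turn a sign. The replicate block, the covariates, the other filters and robust variance leave the log2 fold change unchanged by construction. The kept directions are therefore no separate support. Ass1 lay between -1.27 and -0.98 log2 units over 21 alternative settings and passed in 11. Arg1 lay between 0.83 and 1.17 over 20 settings and passed in 17, and Sat1 between 0.62 and 0.82 over 20 settings and passed in 9.

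**Figure D5:**
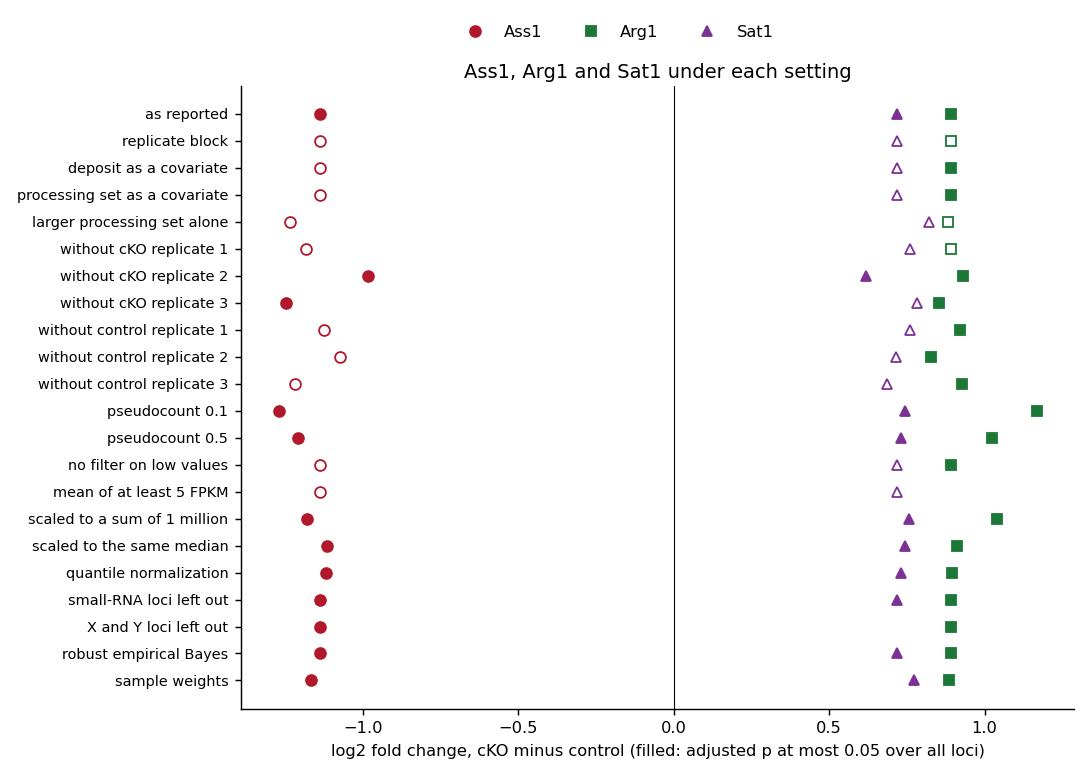
Log2 fold changes, cKO minus control (x axis), of Ass1 (circles), Arg1 (squares) and Sat1 (triangles) as reported and under each alternative setting (y axis). Filled symbols have a limma adjusted p of at most 0.05 over all loci. Ass1 stays left of 0 and Arg1 and Sat1 right of 0 throughout, and open symbols are most frequent for Sat1. Arg1 has no point at a mean of at least 5 FPKM and Sat1 none with X and Y loci left out, since the setting removes them.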

How the data were processed

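The submitters' processing notes name CASAVA, TopHat, Cufflinks and mm10. The authors' deposited table was taken to hold FPKM for each locus, a unit that no label states and that rests on the use of Cufflinks, the XLOC identifiers and the range of values. Tool versions, annotation, strand setting and between-library scaling were not given in the sources used here. Read depth is unknown and limits the precision of low values. Columns were assigned by title. The library titled cKO 1 is numbered 3 in its description.

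Values were taken as log2(FPKM + 1) for 13612 of 23793 loci, those that reached 1 FPKM in 3 or more libraries. The fit used limma 3.58.1 in R 4.3.3 with an intensity trend, two-sided moderated tests and Benjamini-Hochberg adjustment over all loci. Group values are means ± SD of FPKM. Genomic positions and overlapping genes are those of GENCODE M21 (GRCm38), and promoters are from RefSeq (GRCm38.p6). The fit was tested on simulated data with independent normal noise at the within-group SD. The simulation held no processing sets, so it does not cover that feature of these libraries. The members, lists and tests were chosen with earlier results of these data known. From each list around the pathway, genes past the threshold were named, otherwise those with the 2 smallest p-values. Nos1, Nos2, Nos3, Cps1, Otc, Nags, Gatm, Atp13a4, Gdf10, Olig1, Csf1r, Ptf1a, Mfsd2a, Pecam1, Kdr and Flt1 were named with their values in view, and otherwise the 2 most abundant genes of a marker list. An item this rule names is not reported here. Alternatives were the replicate number as a block, deposit and processing set as covariates, the larger processing set alone, each library left out, 2 other pseudocounts, 2 other filters, 3 other scalings, small-RNA or X and Y loci left out, robust variance, sample weights (statmod 1.5.0) and 2 other thresholds. Deposit sets control 3 and cKO 3, whose sample records are numbered apart from the others, against the rest. With it Ass1 (limma adjusted p = 0.0857) and Sat1 (0.0709) lost their calls and Arg1 (0.0273) kept its call. Figures were drawn with matplotlib 3.10.9 under Python 3.11.15.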

Additional observations from a re-analysis of the deposited data

How the results depend on the processing

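The number of loci called, 78 as reported, was 22 with deposit as a covariate, 30 in the larger processing set alone, 28 without a filter, 30 at a mean of at least 5 FPKM, 330 with small-RNA loci left out, 336 with robust variance, 409 at a threshold of 0.1, 20 at 0.01, and 21 to 55 with 1 library left out. The number of members called, 3 as reported, was 1 with deposit or processing set as a covariate or without a filter, 0 in the larger processing set alone, at a mean of at least 5 FPKM or at a threshold of 0.01, and 0 to 3 with 1 library left out. The number of genes called in the lists around the pathway, 1 as reported (Gamt), was 0 with either covariate, in the larger set alone, under either other filter, with values scaled to the same sum or at a threshold of 0.01, 5 with small-RNA loci left out, robust variance or a threshold of 0.1 (Gamt, Gatm, Slc7a5, Cbs and Cdk4), and 0 to 1 with 1 library left out, the 1 being Gatm without control 3 (adjusted p = 0.0411). The adjusted p of Zeb2 was 0.0442 with small-RNA loci left out, at the same log2 fold change of -0.77, and ranged from 0.0442 to 0.312. The X-linked median, -0.0016 as reported, was 0.022 and 0.021 under the 2 scalings to the same sum and to the same median, and the autosomal median, -0.0097 as reported, was 0.014 and 0.013. No log2 fold change of a member, of Gatm or of a pathway gene named by rule changed sign. With a replicate block 15 loci, 0 members and 0 pathway genes were called. A pairing by number is not stated. Deviations of same-numbered libraries correlated at only -0.0268 to 0.0488 across loci. These values cannot exclude a pairing, and the library titled cKO 1 is numbered 3 in its description. The causes were not tested.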
